A study of Mus musculus with 31 samples.

Results

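Ribosome biogenesis genes encode the proteins that transcribe, modify, cut and fold ribosomal RNA and assemble it with ribosomal proteins into subunits. The set described here has 45 named mouse genes, grouped by function, and named with earlier results of these arrays known. A gene was measured where the array has a probe set that carries its symbol and no other. A gene with several such probe sets is represented by its brightest one, by mean signal across the 31 arrays. By this rule 39 of the 45 genes were measured, among 8251 genes of the array that meet the same rule. The genes Npm3, Dkc1, Nop14, Nob1, Mrto4 and Nle1 had no such probe set and are not described.

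The study followed B6 mouse embryonic stem (ES) cells as they formed embryoid bodies (EBs), and its 31 Affymetrix MgU74Av2 arrays fall into 5 groups. All cells came from cultures kept on mouse embryonic feeders with serum and LIF, the cytokine that holds mouse ES cells undifferentiated, and feeders were removed by plating on gelatin. Both day 0 groups are ES cells: 6 arrays are of ES cells sorted for Oct4-GFP, a reporter of the undifferentiated state, and 6 are of feeder-depleted ES cells grown on gelatin, which the methods name as the 0-day cells. EBs were grown from the gelatin cells in non-adherent dishes without LIF and taken at day 4 (7 arrays), day 8 (6 arrays) and day 14 (6 arrays). EBs hold mixed cell types, and the methods speak of biological samples while the labels name no separate cultures, so p-values measure the spread between these arrays, which may in part be technical. The values are dChip signals on a linear scale, which follow the brightness of a probe set, so levels of different genes are not compared.

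In every growing cell RNA polymerase I transcribes the ribosomal RNA precursor in the nucleolus. Small nucleolar ribonucleoproteins (snoRNPs) of the box C/D and box H/ACA classes guide its methylation and pseudouridylation. Assembly factors then build the small and the large subunit, and the MYC transcription factors are known activators of many genes of this pathway. Mouse ES cells divide fast and have prominent nucleoli.

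Some arrays stood apart from their group. Day 4 arrays 6 and 7 correlated with day 4 arrays 1 to 5 at 0.947 to 0.978 over all probe sets, against 0.991 with each other and 0.987 to 0.993 among arrays 1 to 5. Their visceral endoderm markers, as a mean log2 deviation from each gene's own mean over the 31 arrays, stood at -0.14 and 0.02, against -1.15 to -0.99 in arrays 1 to 5. Their undifferentiated ES cell markers stood at -0.20 and 0.06, against 0.42 to 0.73. Day 8 arrays 2 and 4 correlated with day 8 arrays 1, 3 and 5 at 0.972 to 0.981. The 3' to 5' signal ratio of the Gapdh control, a measure of RNA length, was 3.48 to 6.85 on gelatin, with arrays 3, 4 and 6 at 6.31 to 6.85, and 2.06 to 4.4 in the other groups. The ratio of a second control, beta-actin, was 4.1 to 6.82 on gelatin and 2.24 to 3.48 in the other groups. Gelatin arrays 1, 2 and 5 stood at 4.1 to 4.27 by beta-actin. Leaving out gelatin arrays 3, 4 and 6 therefore does not remove this difference between gelatin and the other groups. Some counts that rest on the arrays that stood apart are also given without them. The same holds for some, but not all, members whose call or size such arrays decide.

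The members were lower in later EBs, and the step from day 4 to day 8 held the most calls. Of 39 members, 28 were lower at day 8 than at day 4 and 0 higher (limma, adjusted p under 0.05; at an unadjusted p under 0.05 the counts were 31 and 0). Among all genes 13.0% were lower and 13.6% higher in that comparison. The median change of the members was -0.49 on the log2 scale, with 36 of 39 below 0, and that of all genes was 0.0. The Gapdh 3' to 5' ratio moved with the members in these groups. It was 2.77 to 4.4 in day 4 arrays 1 to 5, where the members were high. In arrays 6 and 7 it was 2.24 and 2.34, and at day 8 it was 2.11 to 2.61. The beta-actin ratio did not move with the members in these groups. It was 2.33 to 3.4 in day 4 arrays 1 to 5, 3.26 and 3.31 in arrays 6 and 7, and 2.66 to 3.48 at day 8. Cell type markers moved too, with 10 of 11 visceral endoderm and 7 of 8 cardiac muscle markers higher at day 8 than at day 4 and 5 of 12 undifferentiated ES cell markers lower. The part of RNA quality and of cell makeup in the members' change was not tested. Since EBs are bulk samples, fewer cells of a type and less RNA per cell cannot be told apart.

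As a mean log2 deviation over the 39 members, sorted ES cells spanned -0.04 to 0.19 (median 0.11) and gelatin ES cells 0.07 to 0.29 (median 0.17). Day 4 arrays 1 to 5 lay at 0.28 to 0.43, and arrays 6 and 7 at -0.15 and -0.04. All day 8 arrays, at -0.31 to -0.10, and all day 14 arrays, at -0.41 to -0.20, lay below every ES cell array. The day 8 and day 14 arrays overlapped.

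**Figure D1:**
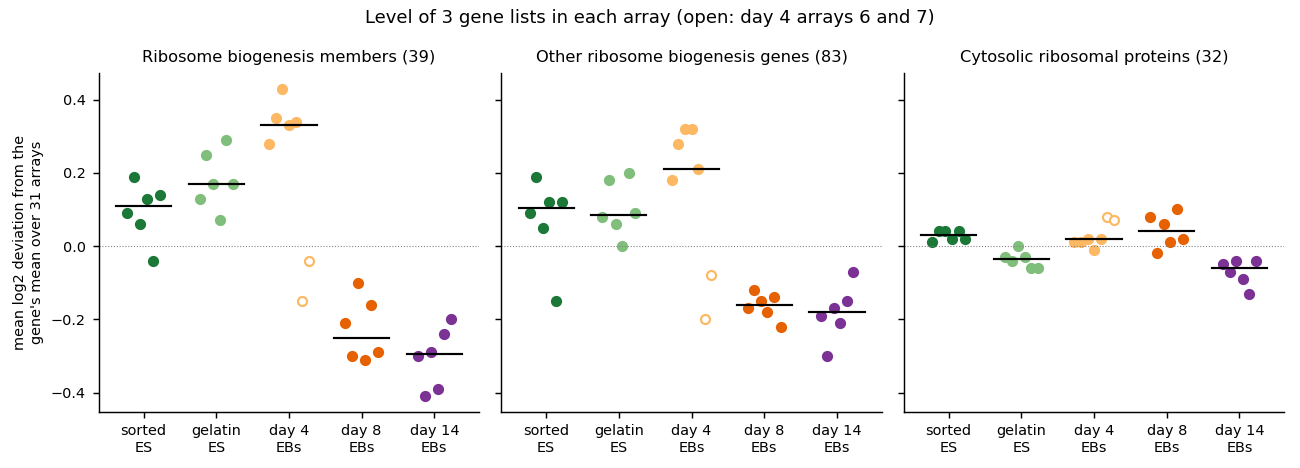
Mean log2 deviation of 3 gene lists in each array, measured from each gene's own mean over the 31 arrays, by group (points are arrays, lines are group medians, and open points are day 4 arrays 6 and 7). Members at day 8 (-0.31 to -0.10) and day 14 (-0.41 to -0.20) lie below both ES cell groups, as do the 83 other ribosome biogenesis genes with the exception of 1 sorted array (-0.15), while the 32 cytosolic ribosomal proteins stay between -0.13 and 0.10 in all groups.

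RNA polymerase I and its factors are represented by 6 members. At day 8, 4 were lower than at day 4 (median -0.46), beside 13.0% of all genes, and 2 did not pass. Rrn3, the initiation factor that links RNA polymerase I to its promoter, had the lowest day 8 to day 4 change of the 39. Its signal, as lowest, median and highest array, was 3724, 4115 and 4294 in sorted ES cells, 5228, 5931 and 7374 on gelatin, 2182, 4475 and 5644 at day 4, 1686, 1965 and 2594 at day 8, with 2084, 2398 and 2712 at day 14. Every gelatin array was above every sorted array, every day 8 and day 14 array was below both ES cell groups, and the lowest day 4 values, 2182 and 2858, were arrays 6 and 7. Rrn3 changed by -0.97 ± 0.16 (log2 ± SE) from day 4 to day 8 (adjusted p = 4.34e-05, limma). Day 14 against sorted ES cells gave -0.76 ± 0.16 (adjusted p = 0.000296) and day 14 against gelatin -1.33 ± 0.16 (adjusted p = 1.26e-07), to 0.399 of the gelatin level. Gelatin against sorted cells gave 0.56 ± 0.16 (adjusted p = 0.00655), and 0.42 (adjusted p = 0.122) without gelatin arrays 3, 4 and 6.

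Polr1a and Polr1b, the genes of the largest catalytic subunits of RNA polymerase I, were lower at day 14 than in both references. The Polr1a change was -0.49 ± 0.09 against sorted cells and -0.69 ± 0.09 against gelatin, and the Polr1b change -0.51 ± 0.11 and -0.80 ± 0.11. Day 14 arrays of both genes overlapped neither ES cell group. Mybbp1a, which encodes a nucleolar MYB-binding protein, was lower at day 14 against gelatin only by its brightest probe set (-0.28 ± 0.05), with -0.07 ± 0.05 against sorted cells. Its other probe sets were lower against sorted cells (-0.16 and -0.23), as was the mean of its probe sets (-0.16, adjusted p = 0.00197, limma). Polr1e, a further subunit gene, did not pass in either (-0.04 ± 0.16 and 0.09 ± 0.16).

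Polr1c, a subunit shared by RNA polymerases I and III, went the other way: at 0.44 ± 0.13 it was higher at day 14 than on gelatin (adjusted p = 0.0054, limma) and at 0.05 ± 0.13 it did not pass against sorted cells. Its second probe set, also well detected at the 75.1th percentile of all probe sets, was lower at day 14 against both references (-0.66 and -0.30). Without gelatin arrays 3, 4 and 6 the first probe set gave 0.26 (adjusted p = 0.206), and the mean of both gave 0.07 against gelatin and -0.30 against sorted cells. The direction for Polr1c is therefore uncertain.

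Nucleolar scaffold and chaperone proteins split. Npm1 and Ncl, the abundant nucleolar proteins nucleophosmin and nucleolin, did not pass at day 14 against either reference. The Npm1 signal was 12863, 18589 and 19311 in sorted cells (lowest, median, highest), 16118, 17354 and 18313 on gelatin, 12910, 18388 and 20636 at day 4, 16219, 16654 and 19121 at day 8, with 17373, 18766 and 20283 at day 14. All 5 groups overlapped, and none of the 9 comparisons passed; at day 14 the changes were 0.09 ± 0.09 and 0.12 ± 0.09, with adjusted p = 0.47 and 0.333 (limma).

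The Ncl signal ran from 14263 through 18421 to 18911 in sorted cells, from 16702 through 18617 to 20115 on gelatin, from 11520 through 21354 to 24061 at day 4, from 13268 through 13796 to 16086 at day 8 and from 18203 through 20250 to 20906 at day 14. Ncl was low at day 8 and high again at day 14, with no overlap between these groups, and day 4 arrays 6 and 7 (11520 and 13597) were far below the other day 4 arrays. The changes were -0.38 ± 0.13 from day 4 to day 8 (adjusted p = 0.0271, limma) and 0.46 ± 0.13 from day 8 to day 14 (adjusted p = 0.00827). Without day 8 arrays 1, 3 and 5 neither step passed (-0.30, adjusted p = 0.202, and 0.39, adjusted p = 0.164). Without day 4 arrays 6 and 7 the first step was -0.61, and in the fit of day 4 and day 8 alone it did not pass (adjusted p = 0.162).

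Nolc1, a chaperone that carries snoRNPs within the nucleolus, was among the members with the largest change. Its lowest, median and highest signals were 3076, 3834 and 4307 in sorted cells, 2751, 3275 and 3770 on gelatin, 2623, 3595 and 4257 at day 4, 1825, 2056 and 2863 at day 8, with 1450, 1802 and 2029 at day 14. All day 14 arrays were below all ES cell and day 4 arrays. The day 14 change was -1.10 ± 0.11 against sorted cells (adjusted p = 4.51e-09, limma) and -0.88 ± 0.11 against gelatin (adjusted p = 2.15e-07).

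Surf6, a nucleolar matrix protein gene, depended on the reference. Signals were 339, 421 and 580 in sorted cells, 691, 753 and 848 on gelatin, 413, 621 and 893 at day 4, 317, 353 and 411 at day 8, with 392, 412 and 490 at day 14. Gelatin arrays lay above all sorted arrays, and every day 8 array lay below every day 4 array. Surf6 was 0.85 ± 0.14 higher on gelatin than in sorted cells (adjusted p = 1.54e-05, limma), 0.82 lower at day 14 than on gelatin (-0.82 ± 0.14, adjusted p = 1.74e-05), and 0.03 ± 0.14 at day 14 against sorted cells (adjusted p = 0.903). Ddx21, an RNA helicase of the nucleolus, passed at day 8 against sorted cells (-0.67 ± 0.23), though not without day 8 arrays 1, 3 and 5 (-0.55, adjusted p = 0.153). Its day 8 to day 4 change was -0.37 ± 0.22 with all arrays, which did not pass, and -0.71 without day 4 arrays 6 and 7 (adjusted p = 0.00212).

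The box C/D snoRNP proteins carry out 2'-O-methylation of ribosomal RNA, and their methyltransferase, Fbl (fibrillarin), differed from its partners. Fbl signal was 4878, 7016 and 7331 in sorted cells, 3767, 5388 and 7223 on gelatin, 6849, 7387 and 8339 at day 4, 6973, 7780 and 8622 at day 8, with 5387, 8235 and 8844 at day 14. Apart from array 2 at 5387, all day 14 arrays were above all ES cell arrays. Against gelatin Fbl gave 0.45 ± 0.12 at day 4, then 0.52 ± 0.13, then 0.53 ± 0.13 for day 14 EBs (adjusted p = 0.000968, limma), all higher, and did not pass against sorted cells at day 14 (0.26 ± 0.13, adjusted p = 0.0898). The gelatin group, which had the lowest Fbl values, also had the highest Gapdh 3' to 5' ratios, and gelatin arrays 3, 4 and 6 held the 3 lowest gelatin signals (5029, 3767 and 4887). Without these 3 arrays the day 4, day 8 and day 14 changes against gelatin were 0.20, 0.27 and 0.28, and none passed (adjusted p = 0.331, 0.116 and 0.101).

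Nop56, a core protein of the same particles, had 5055, 5641 and 6558 in sorted cells, 4648, 5694 and 6234 on gelatin, 3641, 6665 and 7709 at day 4, 3060, 3976 and 4538 at day 8, with 3878, 4341 and 5600 at day 14. Day 8 arrays were below all ES cell arrays and below day 4 arrays 1 to 5, whereas day 4 arrays 6 and 7 (4261 and 3641) fell within the day 8 range. Nop58, its paralogous partner, had 3477, 3996 and 4813 in sorted cells, 4358, 4931 and 5165 on gelatin, 2347, 5010 and 6237 at day 4, 2506, 2848 and 3171 at day 8, with 2659, 3208 and 3612 at day 14. Its day 8 arrays were also below all ES cell arrays and day 4 arrays 1 to 5, with day 4 array 7 (2907) inside the day 8 range and array 6 (2347) below it. The change from day 4 to day 8 was -0.60 ± 0.14 for Nop56 (adjusted p = 0.00173, limma) and -0.68 ± 0.16 for Nop58 (adjusted p = 0.00273). In the fit of day 4 and day 8 alone Nop58 did not pass (adjusted p = 0.0605), and without day 4 arrays 6 and 7 its change was -1.0 (adjusted p = 2.24e-09).

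At day 14 Nop56 was -0.34 ± 0.14 against sorted cells (adjusted p = 0.0473, limma) and -0.32 ± 0.14 against gelatin (adjusted p = 0.0684). A second, dimmer probe set of Nop56 was lower against both (-1.11 and -1.52). The mean of both probe sets gave -0.92 against gelatin (adjusted p = 2.4e-05, limma). Nop58 was -0.34 ± 0.17 against sorted cells (adjusted p = 0.0954) and -0.62 ± 0.17 against gelatin (adjusted p = 0.00377). Rrp9, a protein of the U3 snoRNP, was lower at day 14 in both comparisons by little (-0.30 ± 0.07 and -0.23 ± 0.07).

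The box H/ACA snoRNP proteins guide and support pseudouridylation, and the 3 measured members behaved differently from each other. Nhp2 had the largest day 14 change of all members against sorted cells. Its signals were 8822, 9925 and 10879 in sorted cells, 8464, 8934 and 9714 on gelatin, 7818, 9423 and 10918 at day 4, 4695, 6814 and 8509 at day 8, with 3678, 4011 and 5066 at day 14. Day 14 arrays were below all ES cell and day 4 arrays, and day 8 arrays lay between, overlapping both neighbours. The change was -1.28 ± 0.11 against sorted cells (adjusted p = 2.39e-10, limma), to 0.412 of their level, and -1.13 ± 0.11 against gelatin. Both steps passed, at -0.53 ± 0.11 from day 4 to day 8 and -0.65 ± 0.11 from day 8 to day 14.

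Nop10, a small protein of the same complex, had 5327, 6247 and 8028 in sorted cells, 7613, 8506 and 9852 on gelatin, 5821, 7470 and 8187 at day 4, 5865, 6141 and 6685 at day 8, with 4409, 5196 and 5684 at day 14. Day 14 arrays were below all gelatin and all day 8 arrays and overlapped the sorted arrays. Its change at day 14 was -0.31 ± 0.09 against sorted cells and -0.75 ± 0.09 against gelatin, and it was 0.44 ± 0.09 higher on gelatin than in sorted cells (adjusted p = 0.000219, limma).

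Gar1, the third of these proteins, had 9060, 9416 and 10151 in sorted cells, 8209, 8471 and 9156 on gelatin, 7503, 8679 and 10037 at day 4, 8252, 9588 and 11742 at day 8, with 7412, 9194 and 9805 at day 14. The groups overlapped, none of the 9 comparisons passed, and day 14 gave -0.09 ± 0.09 against sorted cells (adjusted p = 0.411, limma). Gar1 was also the 1 member for which day 4 arrays 6 and 7 (10037 and 9857) were above arrays 1 to 5.

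**Figure D2:**
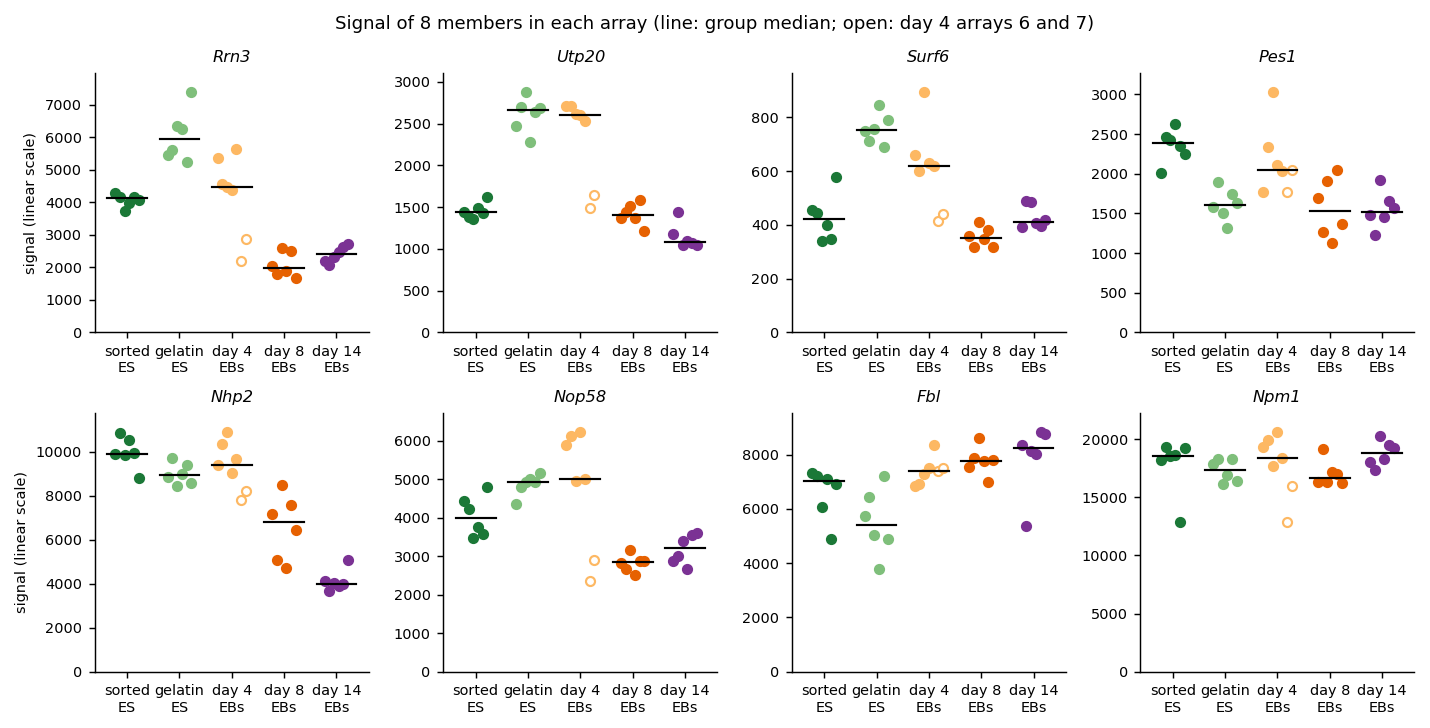
Signal of 8 members in each of the 31 arrays on a linear scale, by group (points are arrays, lines are group medians, open points are day 4 arrays 6 and 7). Nhp2 at day 14 (3678 to 5066) lies below all ES cell arrays, Utp20 and Surf6 are high on gelatin (2276 to 2872 and 691 to 848) against sorted cells (1361 to 1616 and 339 to 580), and the 5 groups of Npm1 overlap.

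Small subunit assembly factors are represented by 7 members, of which 5 were lower at day 8 than at day 4 (median -0.55; 13.0% of all genes were lower) and 5 at day 14 than each reference (medians -0.60 and -0.55; 24.4% of all genes were lower than in sorted cells and 24.1% than on gelatin). Wdr43, a component of the processome that forms on the ribosomal RNA precursor, had 4104, 4288 and 4930 in sorted cells, 3279, 3860 and 4027 on gelatin, 2342, 3290 and 3844 at day 4, 1763, 2133 and 2430 at day 8, with 1586, 1766 and 2306 at day 14. Sorted arrays were above all others and day 14 arrays below all ES cell and day 4 arrays. The day 14 change was -1.27 ± 0.10 against sorted cells (adjusted p = 6.89e-11, limma) and -1.05 ± 0.10 against gelatin (adjusted p = 1.94e-09). A second, bright probe set of Wdr43 did not pass at day 14 (-0.03 and -0.06) but was lower at day 8 than at day 4 (-0.69).

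Utp20, another processome protein gene, had 1361, 1436 and 1616 in sorted cells, 2276, 2664 and 2872 on gelatin, 1484, 2598 and 2712 at day 4, 1213, 1405 and 1579 at day 8, with 1051, 1084 and 1439 at day 14. Gelatin arrays and day 4 arrays 1 to 5 were high, day 4 arrays 6 and 7 (1484 and 1650) lay near the sorted and day 8 arrays, and day 14 was lowest. Utp20 was 0.84 ± 0.12 higher on gelatin than in sorted cells (adjusted p = 2.5e-06, limma), 1.79-fold. At day 14 it was -0.35 ± 0.12 against sorted cells and -1.19 ± 0.12 against gelatin, so the size of its change depended on the reference.

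Tsr1, needed for maturation of the small subunit, varied most among arrays, with 2069, 3220 and 3700 in sorted cells, 2677, 3986 and 4928 on gelatin, 1110, 4567 and 5264 at day 4, 1354, 1750 and 2272 at day 8, with 2195, 2785 and 3280 at day 14. Day 8 was lowest, with day 4 arrays 6 and 7 (1110 and 1654) at that level and the others at 4006 or more. Tsr1 changed by -0.91 ± 0.28 from day 4 to day 8 (adjusted p = 0.0162, limma), which did not pass without day 8 arrays 1, 3 and 5 (-0.83, adjusted p = 0.108). Without day 4 arrays 6 and 7 the change was -1.43. At day 14 Tsr1 did not pass against either reference (-0.07 ± 0.29 and -0.48 ± 0.29).

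Among the rest of the small subunit factors, Bysl and Utp14a were lower at day 14 against both references (Bysl -0.63 ± 0.09 and -0.89 ± 0.09, Utp14a -0.60 ± 0.13 and -0.55 ± 0.13). Imp4, a U3 snoRNP protein, passed only against sorted cells (-0.61 ± 0.15), and Emg1, a methyltransferase of the small subunit RNA, only against gelatin (-0.43 ± 0.13).

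Large subunit assembly factors form the largest group, with 14 members. At day 8 against day 4, 12 were lower (median -0.49), beside 13.0% of all genes, and Ebna1bp2 (-0.12 ± 0.10) and Nip7 (-0.35 ± 0.14) did not pass. At day 14, 9 were lower than in sorted cells (median -0.64) and 10 lower than on gelatin (median -0.49), beside 24.4% and 24.1% of all genes, while the rest did not pass. Ppan had 1181, 1377 and 1613 in sorted cells, 1347, 1676 and 2511 on gelatin, 1365, 1466 and 2393 at day 4, 695, 818 and 1122 at day 8, with 681, 742 and 813 at day 14. All day 8 and day 14 arrays were below all ES cell and day 4 arrays, arrays 6 and 7 included. The changes were -0.93 ± 0.14 from day 4 to day 8 (adjusted p = 2.31e-05, limma), -0.90 ± 0.15 at day 14 against sorted cells and -1.26 ± 0.15 against gelatin.

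Nop16 had 3905, 4218 and 4797 in sorted cells, 4071, 4691 and 5142 on gelatin, 3103, 4081 and 5481 at day 4, 2202, 2732 and 3135 at day 8, with 1948, 2404 and 2530 at day 14. Day 14 arrays were below all ES cell and day 4 arrays. Its day 14 change was -0.89 ± 0.10 against sorted cells and -1.01 ± 0.10 against gelatin, and a second probe set was also lower in both (-0.69 and -0.56).

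Pes1, Bop1 and Wdr12 encode the PeBoW complex, which acts in large subunit RNA processing. Pes1 had 2005, 2387 and 2630 in sorted cells, 1317, 1607 and 1899 on gelatin, 1765, 2047 and 3025 at day 4, 1123, 1533 and 2048 at day 8, with 1222, 1524 and 1920 at day 14. Gelatin and day 14 arrays were both below all sorted arrays and overlapped each other. Gelatin against sorted cells gave -0.55 ± 0.14, and -0.43 (adjusted p = 0.0554) without gelatin arrays 3, 4 and 6. Pes1 was therefore lower at day 14 against sorted cells (-0.61 ± 0.14, adjusted p = 0.000535, limma) but not against gelatin (-0.06 ± 0.14, adjusted p = 0.77). Wdr12, the dimmest member, at the 27.4th percentile of all probe sets, went the other way, with -0.07 ± 0.12 against sorted cells and -0.47 ± 0.12 against gelatin. Bop1 was lower against both (-0.71 ± 0.08 and -0.74 ± 0.08), but a second probe set of about the same brightness (53.2th percentile, against 53.5) did not pass (-0.02 and 0.23) and correlated with the first at -0.11 over the 31 arrays, so the direction for Bop1 is uncertain too. By their brightest probe sets Pes1, Bop1 and Wdr12 were lower at day 8 than at day 4, at -0.47 ± 0.13, -0.40 ± 0.08 and -0.39 ± 0.11. The second Bop1 probe set gave 0.0 in this step and did not pass. Pes1 did not pass without day 8 arrays 2 and 4 (-0.29, adjusted p = 0.118), nor Wdr12 without arrays 1, 3 and 5 (-0.36, adjusted p = 0.0819), and neither passed in the fit of day 4 and day 8 alone (adjusted p = 0.0742 and 0.0821).

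Ebna1bp2, a nucleolar assembly factor, differed between the ES cell groups. Signals were 4498, 4656 and 5732 in sorted cells, 3143, 3529 and 3992 on gelatin, 3530, 3834 and 4948 at day 4, 2973, 3714 and 4447 at day 8, with 2062, 2929 and 3116 at day 14. Sorted arrays were above all gelatin arrays, and day 14 arrays were below both. Against sorted cells it was lower at day 8 (-0.38 ± 0.10) and at day 14 (-0.83 ± 0.10). Without day 8 arrays 2 and 4 the day 8 change did not pass (-0.27, adjusted p = 0.0655, limma). The step from day 8 to day 14 was -0.45 ± 0.10 (adjusted p = 0.00174, limma), and -0.28 (adjusted p = 0.16) without day 8 arrays 1, 3 and 5.

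The other large subunit factors were given by their changes at day 14 against sorted cells and then gelatin. Nop2, a ribosomal RNA methyltransferase (-0.79 ± 0.07 and -0.82 ± 0.07), Nip7 (-0.71 ± 0.14 and -0.75 ± 0.14), Wdr74 (-0.67 ± 0.14 and -0.51 ± 0.14) and Gnl3, the GTPase nucleostemin (-0.41 ± 0.15 and -0.47 ± 0.15), were lower in both. Rrp1b was lower against gelatin only (-0.24 ± 0.12 and -0.65 ± 0.12). Rrp1 (0.21 ± 0.14 and -0.00 ± 0.14), Rrs1 (0.05 ± 0.21 and -0.30 ± 0.21) and the GTPase gene Gnl2 (0.21 ± 0.15 and 0.14 ± 0.15) passed in neither.

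Set against the sorted ES cells, 22 of 39 members were lower at day 14 and 0 higher (limma; 23 and 1 at an unadjusted p under 0.05), beside 24.4% and 27.0% of all genes. The median was -0.35. Set against gelatin, 25 were lower and 2, Fbl and Polr1c, higher, beside 24.1% and 22.8%, with a median of -0.48. The comparisons share the day 14 arrays. By brightest probe set, 19 members were lower against both references, 3 against sorted cells only (Nop56, Pes1 and Imp4), 6 against gelatin only (Nop58, Rrp1b, Wdr12, Surf6, Emg1 and Mybbp1a), and 9 passed in neither. With probe sets averaged per gene, Nop56 was lower than on gelatin too (-0.92), and Mybbp1a and Polr1c were lower than in sorted cells (-0.16 and -0.30). Nip7 then did not pass against sorted cells (-0.20), nor Polr1c against gelatin (0.07). The arrays of the groups did not overlap, with day 14 lower, for 17 of 39 members against sorted cells and 18 of 39 against gelatin, beside 14.7% and 16.6% of all genes. Day 14 arrays were also low in undifferentiated ES cell markers, at -1.83 to -0.66 against 0.75 to 1.06 in sorted cells and -0.21 to 0.09 on gelatin, so the difference from gelatin was smaller. They were high in visceral endoderm markers, at 1.52 to 1.84 against -1.12 to -1.03 and -1.08 to -0.81. The part of the changed cell makeup in the members' levels was not tested.

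**Figure D3:**
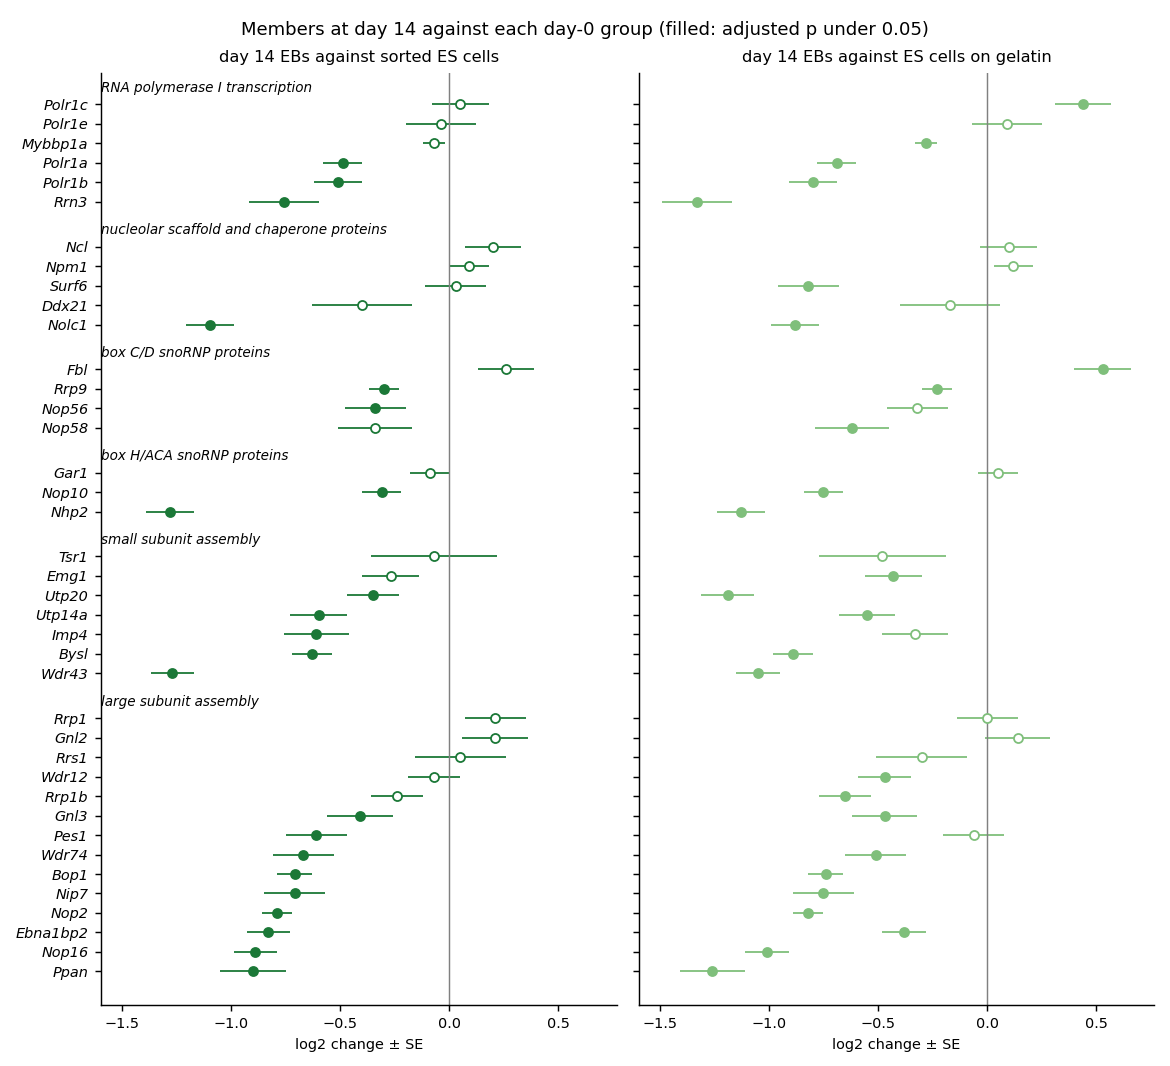
Change of each measured member at day 14 on the log2 scale, with its SE, against sorted ES cells (left) and ES cells on gelatin (right), grouped by role (filled points have a limma adjusted p under 0.05). Changes run from -1.28 (Nhp2) to 0.26 (Fbl) on the left and from -1.33 (Rrn3) to 0.53 (Fbl) on the right.

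The references themselves differed. On gelatin 9 members were higher and 3 lower than in sorted cells, with a median of 0.06, beside 23.3% higher and 18.4% lower among all genes. Those higher were Surf6, Utp20, Rrn3, Nop10, Rrp1b, Wdr12, Polr1b, Bysl and Mybbp1a, and those lower Pes1, Ebna1bp2 and Polr1c. With probe sets averaged per gene, Bysl (0.09) and Mybbp1a (0.04) did not pass, and Gar1 passed as lower (-0.14). The share higher is near the background, and the share lower is under it. Undifferentiated ES cell markers stood at -0.21 to 0.09 on gelatin and 0.75 to 1.06 in sorted cells, with 8 of 12 lower on gelatin. Neural markers stood at 0.25 to 0.52 and -0.66 to -0.44, with 5 of 8 higher on gelatin. Of 12 fibroblast markers 5 were higher there and 0 lower, while 7 had a change below 0 and the median was -0.02. The part of cell makeup in the members' differences was not tested. Without gelatin arrays 3, 4 and 6, which had the highest Gapdh ratios, 5 were higher (Surf6, Utp20, Nop10, Mybbp1a and Rrp1) and 1 lower (Ebna1bp2), and without sorted array 5 the number lower was 5.

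At day 4 more members were higher than lower. Against sorted cells 9 were higher and 1 (Wdr43) lower, beside 12.1% and 14.0% of all genes, and against gelatin 10 were higher and 2 (Rrn3 and Bysl) lower, beside 8.33% and 17.8%. The members higher in both were Rrp1 (0.68 ± 0.14 against sorted cells and 0.47 ± 0.14 against gelatin), Gnl3 (0.49 ± 0.15 and 0.44 ± 0.15), Gnl2 (0.48 ± 0.14 and 0.42 ± 0.14) and Emg1 (0.51 ± 0.12 and 0.35 ± 0.12). None of these passed against gelatin without gelatin arrays 3, 4 and 6, at 0.15, 0.26, 0.24 and 0.18 for Rrp1, Gnl3, Gnl2 and Emg1, or in the fit of day 4 and gelatin alone (adjusted p = 0.0809, 0.0934, 0.0723 and 0.0701). In the fit of day 4 and sorted cells alone, Gnl3, Gnl2, Surf6 and Nop10 did not pass (adjusted p = 0.0804, 0.0529, 0.0802 and 0.13, limma). Polr1c passed as higher in that fit (adjusted p = 0.0475). With all groups in the fit, the median change was 0.12 against sorted cells and -0.02 against gelatin. The number higher than gelatin was sensitive to single arrays: 4 without day 4 array 3 or without gelatin array 4, 5 without gelatin array 6, 6 without day 4 array 2 or without gelatin array 3, and 1 without gelatin arrays 3, 4 and 6 together. The number lower than gelatin was 4 without day 4 array 1 or gelatin array 5 and 5 without day 4 array 3.

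Day 4 arrays 6 and 7 were below all of arrays 1 to 5 for 23 of the 39 members and above them for 1. This count was not made over all genes, so it is not read as a trait of the members. Arrays 6 and 7 also stood apart from arrays 1 to 5 over all probe sets. With both left out, 17 members were higher at day 4 than in sorted cells and 1 lower, beside 15.5% and 18.0% of all genes in the same fit, and the median was 0.22. Against gelatin 12 were then higher and 3 lower, beside 8.41% and 17.7%. At day 8 against day 4, 30 were then lower and 1 (Gar1, 0.24) higher, beside 20.0% and 20.4%, with a median of -0.61. The largest of these changes were -1.43 for Tsr1, -1.24 for Rrn3, and -1.0 for both Nop58 and Ppan. The number lower at day 8 thus moved from 28 to 30, and the number higher than sorted cells at day 4 from 9 to 17.

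At day 8, 20 members were lower than in sorted cells and 0 higher (limma; 21 and 2 at an unadjusted p under 0.05), beside 19.4% and 16.9%, with a median of -0.31. Against gelatin 23 were lower and 2 (Fbl and Polr1c) higher, beside 26.2% and 18.7%, with a median of -0.45. Day 8 arrays 2 and 4 had lower undifferentiated ES cell markers (-0.69 in both) than arrays 1, 3 and 5 (0.29 to 0.59) and higher cardiac muscle markers (0.87 and 1.06, against 0.08 to 0.33). Their members stood at -0.31 and -0.30, against -0.21 to -0.10. With arrays 2 and 4 left out, 23 members were lower at day 8 than at day 4, and with arrays 1, 3 and 5 left out also 23. The calls lost were those of Nop10, Rrp1, Pes1, Gnl2 and Mybbp1a without arrays 2 and 4, and those of Ncl, Nop10, Rrs1, Rrp1, Rrp1b, Wdr12 and Tsr1 without arrays 1, 3 and 5. In the fit of day 4 and day 8 alone 22 were lower.

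From day 8 to day 14 fewer members changed: 8 were lower and 1 (Ncl) higher, beside 13.0% and 21.1% of all genes, with a median of -0.11. Those lower were Nhp2, Emg1, Ebna1bp2, Utp14a, Wdr74, Nop10, Bop1 and Nop2. By path, with brightest probe sets and all arrays, 22 members were lower at day 8 than at day 4 and did not pass in the second step, 5 were lower in both steps (Nhp2, Nop10, Bop1, Nop2 and Wdr74), 3 were lower in the second step only (Ebna1bp2, Utp14a and Emg1), and 8 passed in neither. The second Bop1 probe set gave 0.0 and 0.05 in these steps. Nop10 did not pass in the first step without day 4 arrays 6 and 7. Nop2 did not pass in the second in the fit of day 8 and day 14 alone (adjusted p = 0.0686, limma). The number lower in the second step was 5 without day 8 array 1, 4 without array 3 or array 5, and 1 (Nhp2) without all of them. It was 16 after median centring or quantile normalization of the arrays.

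**Figure D4:**
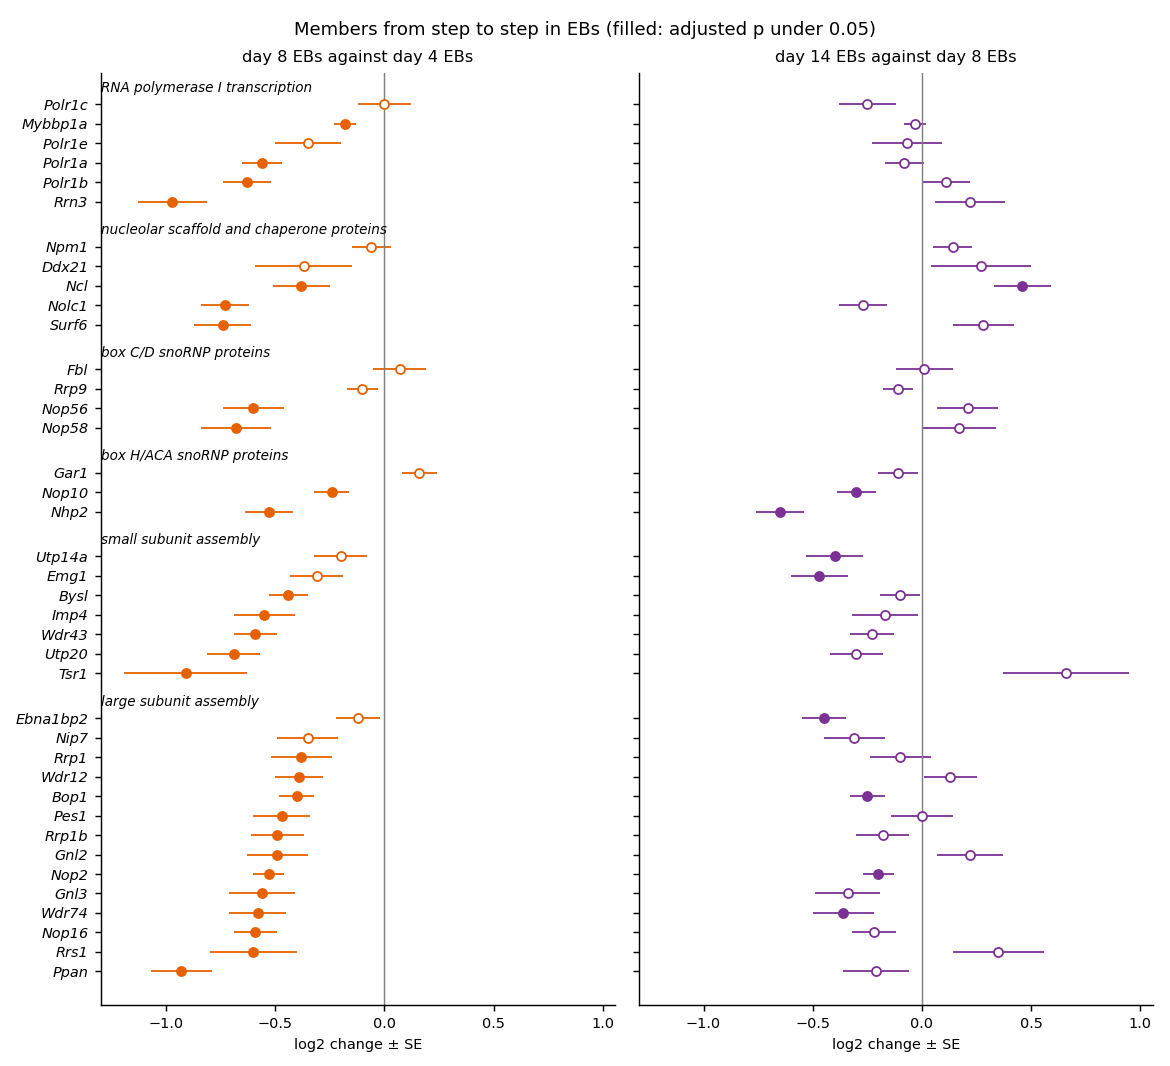
Change of each measured member on the log2 scale, with its SE, from day 4 to day 8 (left) and from day 8 to day 14 (right), grouped by role (filled points have a limma adjusted p under 0.05). On the left the points run from -0.97 (Rrn3) to 0.16 (Gar1) with 28 filled, and on the right from -0.65 (Nhp2) to 0.66 (Tsr1) with 9 filled.

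Several probe sets exist for 11 members, which gives 12 further probe sets. Those of Nop56, Nop16, Polr1a and Polr1c and the brighter of 2 for Mybbp1a were lower at day 14 against both references. Those of Bysl and the dimmer one for Mybbp1a were lower against sorted cells only, and those of Gar1, Bop1 and Wdr43 passed in neither. For Nip7 the dimmer probe set was higher than in sorted cells at day 14 (0.31) where the brighter one was lower (-0.71), and for Imp4 it did not pass (0.07 against -0.61). Both dimmer probe sets lie at or below the 24.2th percentile of all probe sets.

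Other genes of the pathway, taken from a list of 142 factors outside the 45, were measured for 83. At day 8 against day 4, 38 were lower and 0 higher (limma; 47 and 1 at an unadjusted p under 0.05), with a median of -0.28. Among all genes 13.0% were lower and 13.6% higher in that comparison. At day 14, 39 were lower and 6 higher than in sorted cells (median -0.21), beside 24.4% and 27.0% of all genes. Against gelatin 37 were lower and 9 higher at day 14 (median -0.21), beside 24.1% and 22.8%. The largest changes against sorted cells were those of the RNA helicase gene Ddx54 (-1.21 ± 0.17), of Rpf2 (-1.01 ± 0.16) and Brix1 (-0.98 ± 0.14), both large subunit factors, and of Nifk (-0.96 ± 0.17), which encodes a nucleolar partner of Ki-67. Against gelatin they were those of Rpf2 (-1.55 ± 0.16), of Taf1d, a factor of RNA polymerase I initiation (-1.54 ± 0.29), of the RNA methyltransferase gene Ftsj3 (-1.44 ± 0.24) and of the helicase gene Ddx51 (-1.25 ± 0.14).

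The structural proteins of the cytosolic ribosome were called in both directions. Of 79 genes 32 were measured, and at day 8 against day 4, 1 was lower and 3 higher, beside 13.0% and 13.6% of all genes, with a median of 0.01. At day 14, 14 were lower and 3 higher than in sorted cells (median -0.09), beside 24.4% and 27.0%, and 10 lower and 7 higher than on gelatin (median -0.07), beside 24.1% and 22.8%. Rpl22 was higher in both (0.86 ± 0.15 and 1.22 ± 0.15), Rpl37a was lower against sorted cells (-0.81 ± 0.08) and Rpl13a lower in both (-0.49 ± 0.11 and -0.81 ± 0.11). As a list mean they spanned -0.13 to 0.10 over all arrays, beside -0.41 to 0.43 for the members.

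Genes of cell proliferation, of which 19 of 22 were measured, were lower more often than higher at day 8 against day 4 and at day 14 against sorted cells. At day 8 against day 4, 6 were lower and 0 higher (limma; 9 and 3 at an unadjusted p under 0.05), beside 13.0% and 13.6% of all genes, led by Mki67 (-0.84 ± 0.23), Mcm2 (-0.80 ± 0.10) and Mcm3 (-0.47 ± 0.07). At day 14, 8 were lower and 2 higher than in sorted cells, beside 24.4% and 27.0%, and 4 lower and 6 higher than on gelatin, beside 24.1% and 22.8%. Their list mean spanned -0.12 to 0.03 at day 14 and -0.23 to 0.17 in the ES cell groups, which overlap.

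The MYC network, whose factors bind the E-box, was measured for 10 of 11 genes. Myc differed most between the references. Its signal was 247, 286 and 307 in sorted cells, 565, 677 and 748 on gelatin, 159, 341 and 433 at day 4, 238, 270 and 323 at day 8, with 281, 305 and 348 at day 14. The gelatin arrays were above the arrays of every other group. Myc was 1.25 ± 0.17 higher on gelatin than in sorted cells (adjusted p = 8.34e-07, limma). From day 4 to day 8, where 28 members were lower, Myc gave -0.11 ± 0.16 (adjusted p = 0.671). The day 4 arrays spread widely, from 159 to 433, and enclosed the day 8 range. The change is not given without day 4 arrays 6 and 7.

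Mycn, a second MYC family member, had 3542, 4545 and 4781 in sorted cells, 2569, 3229 and 3777 on gelatin, 1662, 3191 and 4156 at day 4, 2161, 2629 and 3106 at day 8, with 2266, 2545 and 2833 at day 14. All day 8 and day 14 arrays were below the sorted arrays. As for Myc, the day 4 range enclosed the day 8 range, and changes are not given without day 4 arrays 6 and 7. Against sorted cells Mycn was lower in the gelatin group (-0.47 ± 0.16) and at each EB stage (-0.58 ± 0.15, then -0.76 ± 0.16, then -0.79 ± 0.16 for day 14 EBs, adjusted p = 0.00013, limma), and from day 4 to day 8 it gave -0.18 ± 0.15 (adjusted p = 0.425).

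Max, the shared partner of these factors, was higher on gelatin than in sorted cells (0.66 ± 0.14) and lower at day 14 than on gelatin (-0.90 ± 0.14), with -0.24 ± 0.14 against sorted cells. Its signal was 1632, 3023 and 3788 at day 4 and 2134, 2184 and 2932 at day 8. With all day 4 arrays this step did not pass. Mxi1, a MAX partner that represses, had 533, 680 and 870 in sorted cells, 409, 435 and 482 on gelatin, 516, 720 and 1000 at day 4, 929, 1097 and 1478 at day 8, with 1915, 2195 and 2838 at day 14. Day 14 arrays were above all others. Mxi1 was 1.69 ± 0.13 higher at day 14 than in sorted cells and 2.34 ± 0.13 higher than on gelatin, and it was the one gene of the network that passed from day 4 to day 8 (0.61 ± 0.13, adjusted p = 0.000882, limma). The remaining genes at day 14 against sorted cells were Mycl (0.89 ± 0.15), Mxd4 (0.54 ± 0.08) and Mnt (0.32 ± 0.07), which were higher, Mxd1 (-0.60 ± 0.10) and Mxd3 (-0.32 ± 0.07), which were lower, and Mlx (0.01 ± 0.07), which did not pass.

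**Figure D5:**
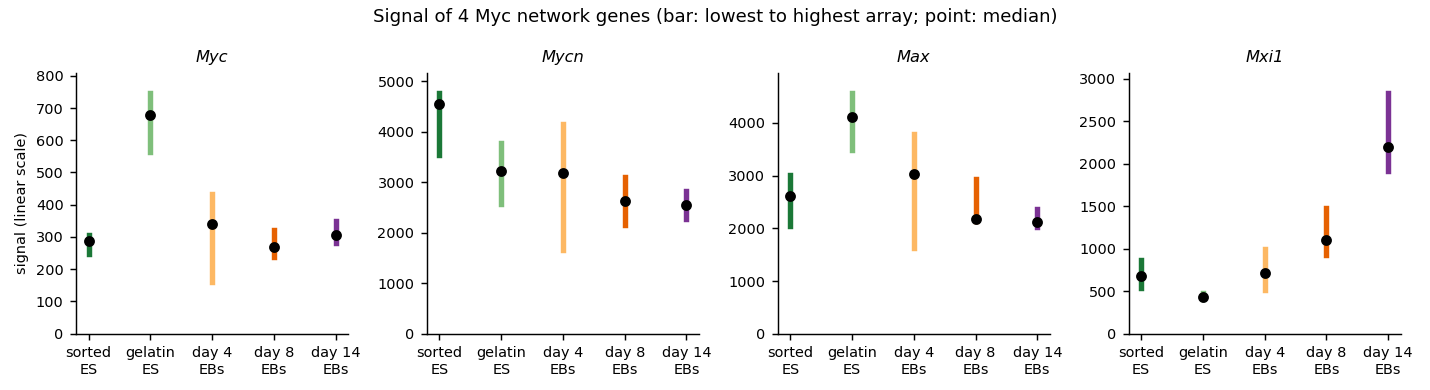
Signal of 4 genes of the MYC network by group on a linear scale (bars run from the lowest to the highest array, points are medians). Myc is high on gelatin only (565 to 748), Mycn is highest in sorted cells (3542 to 4781), and Mxi1 is highest at day 14 (1915 to 2838).

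Since MYC with MAX is known to bind the E-box, the promoters of the members were read for its letters CACGTG, which are the same on both strands. RefSeq promoter sequences of the mouse build GRCm38.p6, from 250 bases before to 50 after the gene start, were at hand for 34 of the 39 measured members. The letters occurred in 8 of these (23.5%), against 2187 of 27025 genes in the table (8.09%) and 753 of 6576 genes measured on the array (11.5%). Of the members lower at day 8 than at day 4, 8 of 25 had them, and of the others 0 of 9. This split depends on calls that moved. Imp4 did not pass with probe sets averaged per gene (-0.16, adjusted p = 0.11, limma). Pes1 and Mybbp1a did not pass without day 8 arrays 2 and 4, nor Tsr1 without arrays 1, 3 and 5. Among all genes lower in this step the share with the letters was not counted. At day 14 the shares were 6 of 21 lower and 2 of 13 other members against sorted cells, and 5 of 24 and 3 of 10 against gelatin. These counts describe letters in a window and are not tests of binding.

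Rrn3, the member with the lowest change from day 4 to day 8, had the letters at 2 places, and Nop2 had them once before its start. Their 250 bases before the gene start are shown on the plus strand from chr16:13780449-13780698 and chr6:125131633-125131882, 5' to 3', with the E-box in capitals.
Rrn3: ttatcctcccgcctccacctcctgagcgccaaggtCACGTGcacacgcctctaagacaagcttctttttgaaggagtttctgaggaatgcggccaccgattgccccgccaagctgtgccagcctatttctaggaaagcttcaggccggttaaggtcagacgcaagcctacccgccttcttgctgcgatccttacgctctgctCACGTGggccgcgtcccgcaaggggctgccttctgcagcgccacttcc
Nop2: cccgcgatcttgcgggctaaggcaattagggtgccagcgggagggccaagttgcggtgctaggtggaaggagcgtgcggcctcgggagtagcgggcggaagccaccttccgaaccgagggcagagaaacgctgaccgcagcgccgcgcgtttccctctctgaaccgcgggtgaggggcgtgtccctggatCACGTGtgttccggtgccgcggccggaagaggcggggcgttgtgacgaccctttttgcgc

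In the other 6 promoters the letters stood once. They are shown with up to 10 bases on each side, to set the flanks side by side, from chr1:34439698-34439723 (Imp4, plus strand, before the start) and, after the start, from chr11:3963967-3963992 (Pes1, plus), chr17:71616222-71616247 (Wdr43, plus), chr11:74898094-74898119 (Tsr1, plus), chr10:88826765-88826787 (Utp20, minus) and chr11:72441357-72441376 (Mybbp1a, plus). The end of the table's window shortens the last pair.
Imp4: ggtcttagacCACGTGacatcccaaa
Pes1: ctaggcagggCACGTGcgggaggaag
Wdr43: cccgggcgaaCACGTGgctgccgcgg
Tsr1: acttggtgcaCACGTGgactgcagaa
Utp20: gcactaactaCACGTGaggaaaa
Mybbp1a: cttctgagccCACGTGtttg

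The 8 genes with the letters had day 8 to day 4 changes from -0.97 (Rrn3) to -0.18 (Mybbp1a). They did not share a direction between the day 0 groups: Rrn3, Utp20 and Mybbp1a were higher on gelatin, Pes1 was lower, and Nop2, Wdr43, Tsr1 and Imp4 did not pass. For Mybbp1a the mean of its probe sets did not pass (0.04, adjusted p = 0.395, limma).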

How the data were processed

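RNA of B6 mouse ES cells and EBs was amplified in 2 rounds by the authors and hybridized to 31 Affymetrix MgU74Av2 arrays. The deposited values are the signal intensity that the authors obtained after normalization and probe-level modeling in dChip, on a linear scale. The dChip version and model are not given in the sources used here. Of 387128 values 104 were exactly 0. The methods give 6 samples per time point and a 12-day point where the labels give 7 arrays at day 4 and 14 days, and the labels were followed.

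Of 12488 probe sets 66 controls were left out. Values below the 5th percentile (59.59) were raised to it and log2 transformed. All arrays entered 1 model of 5 group means over 12422 probe sets, fitted by limma 3.58.1 under R 4.3.3 with moderated variances that follow the mean signal (trend option). Tests were two-sided, with Benjamini-Hochberg adjustment over all of them at 0.05, for 9 comparisons. Log2 changes are on the floored scale, and ± is the SE of the fit. The number of arrays limits the precision. Genes were named from GEO's platform annotation through probe sets of 1 symbol (10833).

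The members and lists were chosen with earlier results of these data known. Lowest, median and highest signals are given for the box C/D and H/ACA core proteins, Ncl, Npm1 and Rrn3, and the 5 members with the largest change among those passing in each of 4 comparisons. Nop2, Imp4 and Mybbp1a were printed as promoters because they hold the motif. The fit was tested on simulated data. The tests were repeated after centring arrays on their medians or normalizing quantiles, with the floor moved to the 1st or the 25th percentile, and without the dimmest 40% of probe sets. They were also repeated on 2 groups at a time, on averaged probe sets per gene, with a replicate block and without each array in turn. Leaving out sets of arrays that stood apart was chosen after seeing the data. Figures were drawn with matplotlib 3.10.9.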

Additional observations from a re-analysis of the deposited data

Results flagged for a closer look

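For the 18 members whose signals are given in full, each of the 5 groups was searched for a lowest or highest array that lies far from the rest, and 7 of 90 such groups had one. By chance about 1 in 20 groups would. In sorted ES cells array 5 was low for Npm1 (12863, against 18214 to 19311 in the other arrays) and high for Ebna1bp2 (5732, against 4498 to 4827). In day 14 EBs array 2 was low for Fbl (5387, against 8013 to 8844) and high for Utp20 (1439, against 1051 to 1180), and array 6 was high for Nhp2 (5066, against 3678 to 4135). In day 8 EBs array 2 was high for Npm1 (19121, against 16219 to 17133). In day 4 EBs array 4 was low for Nop10 (5821, against 7140 to 8187). Day 4 arrays 6 and 7, which lie together, are not found by a search for single arrays.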

How the results depend on the processing

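The main counts kept their direction: at day 14 against sorted ES cells 20 to 23 members were lower with single arrays left out (22 with all), against gelatin 25 to 27 (25), and at day 8 against day 4 24 to 29 (28). Day 8 against sorted cells gave 16 to 19 (20), the number higher there 0 to 1, or 2 in the fit of 2 groups only and 1 without day 8 arrays 2 and 4, and the number higher at day 14 against sorted cells 0 to 1. Gelatin against sorted cells had 3 to 5 members lower when single arrays were left out, 6 in the fit of 2 groups only, 7 after median centring, 9 after quantile normalization and 1 without gelatin arrays 3, 4 and 6, which also gave 5 higher. Day 4 against sorted cells had 1 to 2 lower, 0 with probe sets averaged per gene, and 17 higher without day 4 arrays 6 and 7. Day 4 against gelatin had 2 to 5 lower, 1 in the fit of 2 groups only or after quantile normalization, 4 with dim probe sets left out or a floor at the 1st percentile, and 0 without gelatin arrays 3, 4 and 6. The number higher there was 4 to 10, 3 in the fit of 2 groups only and 1 without those gelatin arrays. Without them, 1 was higher at day 8 than on gelatin and 0 at day 14, where the mean of probe sets gave 1. At day 8 against day 4, 1 was higher without day 4 arrays 6 and 7 or without day 8 arrays 2 and 4. From day 8 to day 14, 4 to 10 were lower with single arrays left out, 16 after median centring or quantile normalization, and 1 without day 8 arrays 1, 3 and 5, which left 0 higher, against 2 without arrays 2 and 4 and 3 in the fit of 2 groups only. The median change at day 14 against sorted cells was -0.46 after quantile normalization. Median centring moved the median of all genes there to -0.11, and the cause of these shifts was not tested. For the members described in full, over the 9 comparisons, 1475 alternative values stayed on their side of the threshold, 54 gained the call, 37 lost it and 0 changed sign while called.

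Same-numbered arrays of different groups did not deviate together: their deviations correlated at -0.35 to 0.49 over 60 pairs, and 7 of 31 arrays matched their own number best, so the numbers were not taken to pair arrays. With a replicate block 22 members were lower at day 14 against sorted cells, 26 against gelatin and 28 at day 8 against day 4, and 11 were higher and 3 lower on gelatin than in sorted cells.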
